A study of Mus musculus with 8 samples.

Results

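The 38 genes described here encode proteins with which the endoplasmic reticulum (ER) folds, moves and discards proteins, together with the sensors of the unfolded protein response. They were taken by name, and all 38 of 38 were found among the 46078 genes counted. They divide into 5 roles, with 4 sensors and transcription factors, 11 lumenal chaperones, lectins and co-chaperones, 4 protein disulfide isomerases, 10 translocon and translocon-associated proteins and 9 proteins of ER-associated degradation. RNA-Seq counts were made in 8 libraries of BV-2 cells, an immortalised line of mouse microglia, which are the resident macrophages of the brain. There were 4 groups of 2 replicates, and every group spent 4 h without serum. The control cells got solvent, and the LPS cells got 100 ng/mL lipopolysaccharide (LPS), a cell wall component of Gram-negative bacteria, for 20 h, a length that the labels do not give. The AGE+LPS cells also got 0.5% (v/v) aged garlic extract (AGE), and the FruArg+LPS cells 3 mM FruArg, a compound of fructose and arginine found in that extract, each from 1 h before the same LPS. Both co-treatments were given with LPS, so neither was measured on its own.

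As background, secreted and membrane proteins enter the ER through the Sec61 translocon, fold there with chaperones and disulfide isomerases, and are sent back to the cytosol for degradation when they fail to fold. When unfolded proteins gather, the membrane sensors IRE1 (encoded by Ern1), PERK (Eif2ak3) and ATF6 set off the unfolded protein response: IRE1 splices the Xbp1 transcript so that it encodes an active transcription factor, ATF6 is cleaved to release one, and PERK phosphorylates eIF2α, which slows translation and favours ATF4 and its target CHOP (Ddit3). Activated macrophages and microglia send large amounts of cytokine through this same route. Gene counts do not tell spliced from unspliced Xbp1 transcripts, and they measure no cleavage, phosphorylation or protein.

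The libraries held 2707500 and 8995052 counts in the controls, 8720784 and 12069807 with LPS, 6795464 and 6669072 with AGE+LPS and 4692715 and 5822113 with FruArg+LPS. Levels below are in CPM, the usual unit for a gene's counts relative to the total of its library, here with the total scaled by TMM (edgeR's trimmed mean of M-values). A count of 3 stood for 0.935 CPM in control replicate 1, the shallowest library, and for 0.276 CPM in LPS replicate 2, the deepest, a floor that covers counting error only. The members took 1.30% and 1.58% of all counts in the controls, 1.86% and 2.25% with LPS, 1.74% and 2.20% with AGE+LPS and 1.55% and 1.77% with FruArg+LPS, the second replicate being higher in all 4 groups. By the labels, the first replicate of every group was sequenced in lane 3 and the second in lane 6. FruArg+LPS replicate 1 stands apart, with counts in 14607 genes against 16341 to 18728 in the other libraries. The counts of members that passed with FruArg are therefore given with and without it, as are some single members. The fitted medians by role and the lists of other pathway genes are given only with it.

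The 10 microglia and macrophage markers summed to 2410 and 2782 CPM in the controls, 2084 and 2347 with LPS, 2073 and 2371 with AGE+LPS and 2746 and 2702 with FruArg+LPS, with Ptprc the most abundant. Within that list the markers of resting microglia in tissue were low, P2ry12 at up to 9.29 CPM, Cx3cr1 at up to 4.03 CPM and Tmem119 at up to 1.38 CPM. The 4 astrocyte markers reached 0.152 CPM in sum (Aldh1l1, Aqp4 and Gja1 without a count), the 4 neuron markers 0.381 CPM (Rbfox3, Snap25 and Syt1 without a count), and the 4 fibroblast markers 0.276 CPM. The 4 T and B cell markers summed to at most 1.15 CPM, all from Cd3d. LPS was visible in Nos2, the inducible nitric oxide synthase, at 2.18 and 0.657 CPM in the controls and 760 and 810 CPM with LPS. In RNA from bulk cells, fewer cells of a type and less RNA per cell cannot be told apart.

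LPS against control asks what the endotoxin did to this machinery. Genes that rose or fell are those with an adjusted p (Benjamini-Hochberg over all genes tested) below 0.05, and the study's own rule for a differentially expressed gene adds at least a 2-fold change (1 on the log2 scale). The rise took in 6 of 11 chaperones, 2 of 4 disulfide isomerases, Serp1 and Sec61a1 of the translocon group, 3 of 9 degradation members and, of the 4 sensors and transcription factors, Xbp1. By the edgeR test on the 4 libraries, 14 of 38 members rose (36.8%), against 16.3% of the 12888 genes tested. None fell (0 members, against 14.3% of all genes). An unadjusted p below 0.05 was found for 21 of 38 members and for 5332 of the 12888 genes. DESeq2 gave 15 members rising and 0 falling, against 1916 and 1548 of the 12888 genes. At least 2-fold up by edgeR were 5 members (13.2%, near the 11.5% of all genes): Dnajb9, Serp1, Hspa5, Selenos and Hsp90b1. The median log2 fold change was 0.55 over the members and 0.02 over all genes. On the positive side were 35 of 38 members, against 6558 of the 12888 genes. With scaling by library size alone 25 members were, against 3899 genes. Within lane 3 the members' median log2 difference was 0.50, with 35 of 38 higher, and within lane 6 it was 0.49, with 34 of 38 higher.

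Fitting the replicate number, which is also the lane, as a block moved 27 members past the test upward (71.1%, against 24.9% of all genes). It moved 0 downward (against 22.9%). At an unadjusted p below 0.05 there were then 29 members, against 6892 of the 12888 genes. DESeq2 was not run with the block. The blocked edgeR fit leaves 1 residual degree of freedom among the libraries. With all 8 libraries in 1 blocked fit, which leaves 3, 23 members rose (60.5%, against 22.2% of all genes). By role, the numbers rising without the block and with it on the 4 libraries were 1 and 2 of 4 sensors, 6 and 9 of 11 chaperones, 2 and 3 of 4 disulfide isomerases, 2 and 6 of 10 translocon members and 3 and 7 of 9 degradation members. The median log2 fold change without the block was 0.18 over the sensors, 0.78 over the chaperones, 0.66 over the disulfide isomerases, 0.47 over the translocon members and 0.55 over the degradation members. Scaling by library size alone put the median of all genes at -0.40 and that of the members at 0.13, with role medians of -0.24 for the sensors, where the sign flips, 0.36, 0.24, 0.05 and 0.13 in the same order; 4 members then rose (Dnajb9, Hspa5, Serp1 and Selenos, 10.5% and near the 9.59% of all genes), the other 10 calls were lost, and Edem1 fell (2.63%, against 28.7%).

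**Figure D1:**
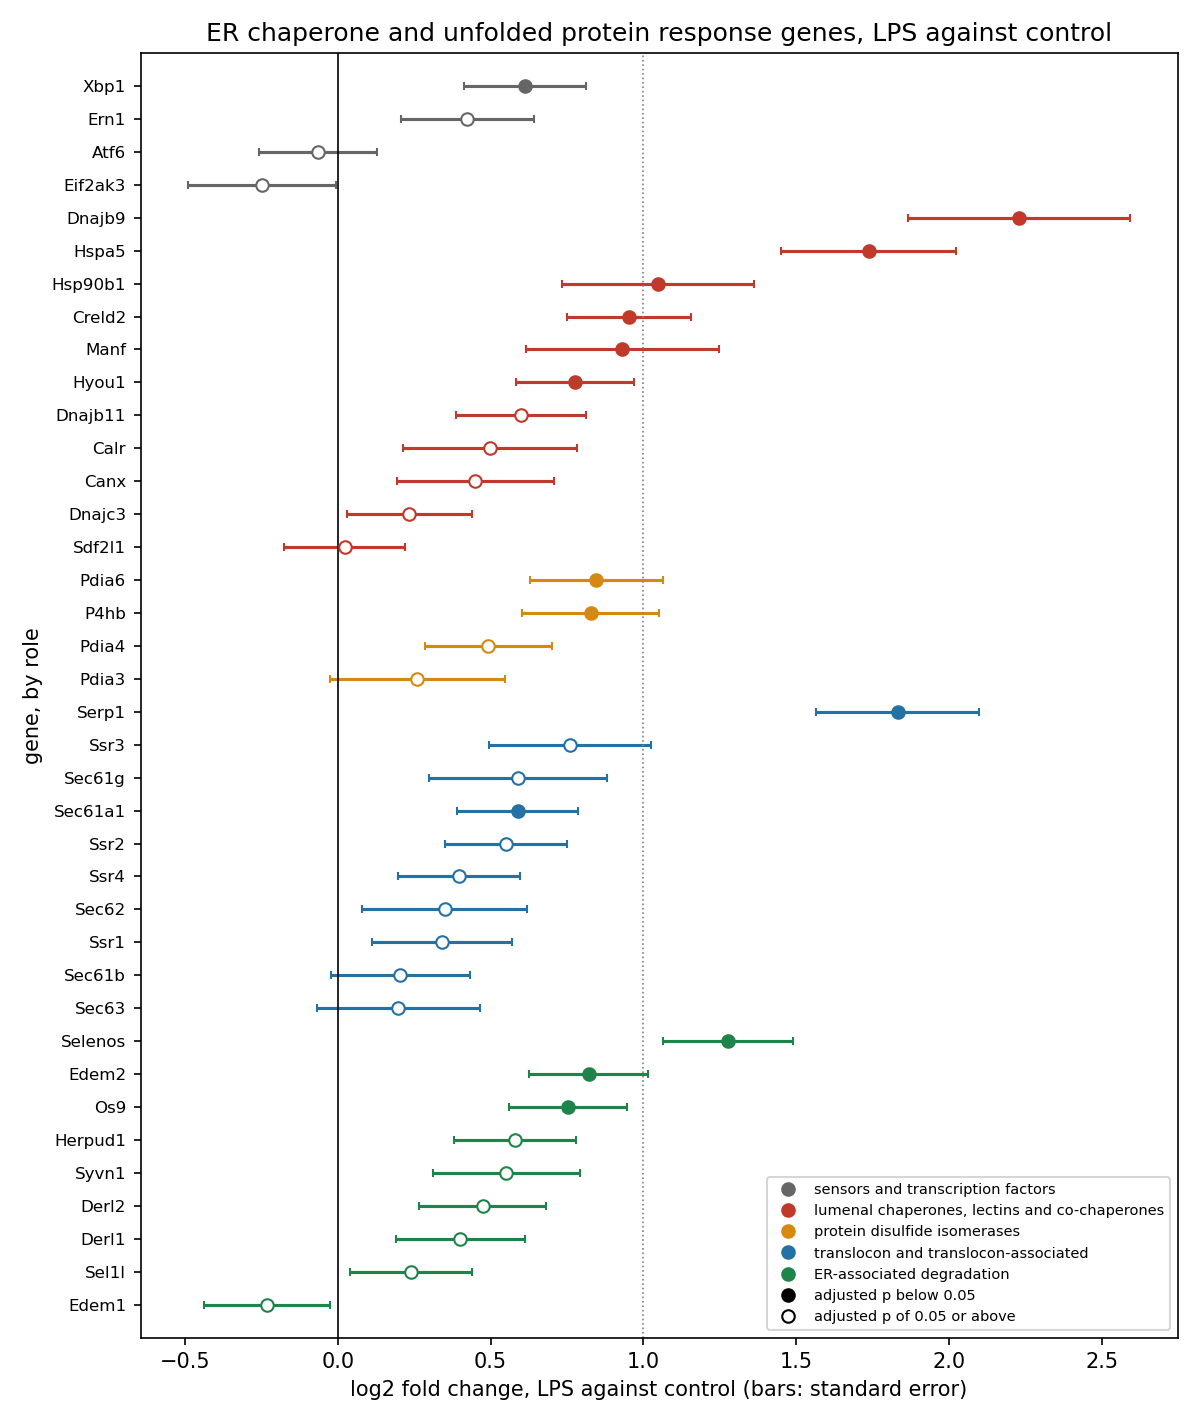
Log2 fold change of each of the 38 genes in LPS against control cells (horizontal axis, bars: standard error; 2 libraries a group), by role on the vertical axis; filled points have an edgeR adjusted p below 0.05 and the dotted line marks a 2-fold rise. The 14 filled points lie to the right of 0, led by Dnajb9 at 2.23, Serp1 at 1.83 and Hspa5 at 1.74, and of the sensors Xbp1 alone is filled; with scaling by library size only Dnajb9, Hspa5, Serp1 and Selenos passed upward, and Edem1 passed downward.

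Among the sensors, Atf6 (ENSMUSG00000026663, chr1:170704674-170867771, minus strand), which encodes the sensor cleaved in the Golgi, stood at 229 and 223 CPM in the controls, 201 and 220.1 CPM with LPS, 205 and 238 CPM with AGE+LPS and 229.9 and 224 CPM with FruArg+LPS. The LPS libraries were just below the controls and the co-treated groups overlapped them; on the log2 scale the LPS change was -0.06 (SE 0.19, edgeR adjusted p = 0.828), which was 0.00044 without LPS replicate 1. Eif2ak3 (ENSMUSG00000031668, chr6:70844515-70905245, plus strand), the gene of PERK, stood at 32.7 and 27.0 CPM in the controls, 26.7 and 22.1 CPM with LPS, 25.9 and 27.9 CPM with AGE+LPS and 25.7 and 26.7 CPM with FruArg+LPS. Both LPS libraries lay below both controls, with means closer to each other than the control replicates were (log2 fold change -0.25, SE 0.24, adjusted p = 0.477). Ern1 (ENSMUSG00000020715, chr11:106394650-106487852, minus strand), the gene of IRE1, stood at 36.8 and 31.6 CPM in the controls, 45.6 and 43.5 CPM with LPS, 54.5 and 45.1 CPM with AGE+LPS and 47.3 and 51.4 CPM with FruArg+LPS. All 6 LPS-treated libraries were above both controls. For LPS alone the log2 fold change was 0.42 (SE 0.22, adjusted p = 0.174), with an adjusted p of 0.0497 with the replicate block, the lowest over the alternatives, which reached 0.992.

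Xbp1 (ENSMUSG00000020484, chr11:5520659-5525893, plus strand), the transcription factor gene downstream of IRE1, stood at 185 and 213 CPM in the controls, 283 and 310.2 CPM with LPS, 208 and 219 CPM with AGE+LPS and 211 and 250.2 CPM with FruArg+LPS. It was high in the LPS libraries alone, above the controls and above all co-treated libraries, and the co-treated libraries overlapped the controls. Against control it rose with LPS by 0.61 on the log2 scale (SE 0.20, edgeR adjusted p = 0.0429), with an adjusted p of 0.000882 in the blocked fit. The call was lost without control replicate 1 (adjusted p = 0.390), without control replicate 2 (0.205) and without LPS replicate 2 (0.0537), over a range of 0.000882 to 0.484 in all alternatives.

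Among the lumenal chaperones, Hspa5 (ENSMUSG00000026864, chr2:34771970-34777547, plus strand) encodes BiP, the Hsp70 of the ER and the partner that keeps the sensors inactive. It stood at 1694.5 and 2218 CPM in the controls, 5582 and 7133 CPM with LPS, 3213 and 4639.9 CPM with AGE+LPS and 2912 and 4112.5 CPM with FruArg+LPS. Every LPS library exceeded every control and every co-treated library, and the co-treated libraries lay between. The means were 1956 ± 370.5 CPM (SD, n = 2) in the controls, 6358 ± 1097 CPM (SD, n = 2) with LPS, 3927 ± 1009 CPM (SD, n = 2) with AGE+LPS and 3512 ± 849 CPM (SD, n = 2) with FruArg+LPS. Hspa5 rose 3.33-fold with LPS (log2 fold change 1.74, SE 0.29, edgeR adjusted p = 0.00179), and it passed under each alternative, with adjusted p from 3.7e-12 to 0.00792.

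Dnajb9 (ENSMUSG00000014905, chr12:44205559-44210326, minus strand), the BiP co-chaperone ERdj4, stood at 13.4 and 20.9 CPM in the controls, 52.3 and 109 CPM with LPS, 39.6 and 80.7 CPM with AGE+LPS and 26.2 and 54.6 CPM with FruArg+LPS. Replicate 2 was above replicate 1 in every group and the LPS-treated groups overlapped, while all 6 of their libraries were above both controls. Its 4.69-fold rise was the largest among the members in this comparison (log2 fold change 2.23, SE 0.36, edgeR adjusted p = 0.00167), and it too passed under each alternative (1.9e-15 to 0.00990). Hsp90b1 (ENSMUSG00000020048, chr10:86690209-86705509, minus strand) encodes GRP94, the Hsp90 of the ER, and stood at 389 and 605 CPM in the controls, 731 and 1273 CPM with LPS, 554 and 1045 CPM with AGE+LPS and 397 and 735 CPM with FruArg+LPS. LPS libraries were above the controls but the FruArg+LPS and AGE+LPS libraries overlapped both groups. It rose by 1.05 (SE 0.31, edgeR adjusted p = 0.0317), a call lost without control replicate 1 (adjusted p = 0.193), without LPS replicate 2 (0.0609), with all 8 libraries in 1 fit without the block (0.103) and with scaling by library size (0.145), in a range of 7.0e-07 to 0.193 over the alternatives. Hsp90b1 shares 4598 bases with the non-coding gene 1810014B01Rik, and the strand of the counted reads is not stated.

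Creld2 (ENSMUSG00000023272, chr15:88819646-88826683, plus strand), a disulfide-linked folding factor of the ER, stood at 108 and 103 CPM in the controls, 219 and 180.2 CPM with LPS, 179 and 152 CPM with AGE+LPS and 133 and 147 CPM with FruArg+LPS. The groups fell in the order LPS, AGE+LPS, FruArg+LPS and control with no overlap. The rise with LPS was 0.95 (SE 0.20, edgeR adjusted p = 0.00664), lost without control replicate 1 (adjusted p = 0.0527) or 2 (0.0871; 5.2e-06 to 0.0871 over the alternatives). Dnajb11 (ENSMUSG00000004460, chr16:22857845-22879634, plus strand), the co-chaperone ERdj3, stood at 189.9 and 233 CPM in the controls, 284 and 341 CPM with LPS, 182 and 226 CPM with AGE+LPS and 161 and 241 CPM with FruArg+LPS. Only the LPS group stood above the controls. With LPS its log2 fold change was 0.60 (SE 0.21, adjusted p = 0.0585), with an adjusted p of 0.00109 with the block and of 0.00957 without LPS replicate 1 (0.00109 to 0.549 over the alternatives). Of the other 6, Manf, a secreted ER stress factor, rose by 0.93 (edgeR adjusted p = 0.0497) and Hyou1, a nucleotide exchange factor for BiP, by 0.78 (edgeR adjusted p = 0.0141). Both calls were lost without control replicate 1 (adjusted p = 0.279 for Manf and 0.169 for Hyou1) and with scaling by library size (0.231 and 0.175), that of Manf also without LPS replicate 2 (0.122), with all 8 libraries in 1 fit without the block (0.139) and with size factors of the DESeq2 type (0.0511), and that of Hyou1 without control replicate 2 (0.146). Over the alternatives the lowest adjusted p was 5.2e-06 for Manf and 6.0e-05 for Hyou1. Manf overlaps Dcaf1 on the opposite strand over 42681 bases and Rbm15b on its own strand over 6511 bases. The lectin chaperones Calr (0.50) and Canx (0.45), the co-chaperone Dnajc3 (0.23) and Sdf2l1 (0.02) did not pass, and the LPS libraries of all 4 overlapped the controls.

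Of the disulfide isomerases, Pdia6 (ENSMUSG00000020571, chr12:17266545-17284770, plus strand) stood at 266 and 327 CPM in the controls, 471 and 569 CPM with LPS, 375 and 465 CPM with AGE+LPS and 411 and 441 CPM with FruArg+LPS. Each LPS-treated group was above the controls, and the LPS group was above both co-treated groups. P4hb (ENSMUSG00000025130, chr11:120560298-120573253, minus strand), which encodes the classical protein disulfide isomerase, stood at 913 and 1029 CPM in the controls, 1703 and 1658 CPM with LPS, 1728 and 2013 CPM with AGE+LPS and 2139.5 and 2080.2 CPM with FruArg+LPS. Here the order was control, LPS, AGE+LPS and FruArg+LPS with no overlap between groups. With 2 libraries a group such an order is not a test. The log2 step of P4hb from LPS to AGE+LPS was 0.02 within lane 3 and 0.28 within lane 6. With LPS, Pdia6 rose by 0.85 (SE 0.22, edgeR adjusted p = 0.0165) and P4hb by 0.83 (SE 0.23, edgeR adjusted p = 0.0212). Without control replicate 1 the adjusted p was 0.217 for Pdia6 and 0.227 for P4hb, and without control replicate 2 it was 0.0595 and 0.106; the ranges over the alternatives were 1.4e-05 to 0.217 and 2.4e-05 to 0.227. Pdia4 (ENSMUSG00000025823, chr6:47796141-47813430, minus strand), the isomerase ERp72, stood at 182 and 217 CPM in the controls, 248 and 300.1 CPM with LPS, 329.9 and 433 CPM with AGE+LPS and 208 and 296 CPM with FruArg+LPS. The AGE+LPS libraries were the highest, above both LPS libraries, and the FruArg+LPS libraries overlapped LPS and control. Pdia4 had a log2 fold change of 0.49 with LPS (adjusted p = 0.105; 0.00648 with the block and 0.0254 without LPS replicate 1, in a range of 0.00648 to 0.824). Pdia3, the isomerase that works with calreticulin and calnexin, had one of 0.26 (adjusted p = 0.533).

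In the translocon group, Serp1 (ENSMUSG00000027808, chr3:58519817-58525892, minus strand), a small protein bound to Sec61, stood at 755 and 977 CPM in the controls, 2627 and 3385 CPM with LPS, 2158 and 2938 CPM with AGE+LPS and 2226 and 2439 CPM with FruArg+LPS. All LPS-treated libraries were at least 2158 CPM against at most 977 CPM in the controls, and AGE+LPS overlapped LPS while FruArg+LPS lay below it. Serp1 rose 3.56-fold with LPS (log2 fold change 1.83, SE 0.27, edgeR adjusted p = 0.000914) and passed under each alternative (5.3e-13 to 0.00319). The channel itself moved less. Sec61a1 (ENSMUSG00000030082, chr6:88503579-88518905, minus strand), the pore subunit, stood at 296 and 302 CPM in the controls, 456 and 423 CPM with LPS, 463 and 462 CPM with AGE+LPS and 505 and 519 CPM with FruArg+LPS. It followed the order of P4hb, with no overlap between groups. Its log2 step from LPS to AGE+LPS was 0.02 within lane 3 and 0.13 within lane 6. With LPS, Sec61a1 rose by 0.59 (SE 0.20, edgeR adjusted p = 0.0489). That call was lost without control replicate 1 (adjusted p = 0.335), control replicate 2 (0.312) or LPS replicate 1 (0.0683; 0.00135 to 0.541 over the alternatives).

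Sec61g (ENSMUSG00000078974, chr11:16500530-16508484, minus strand), the gamma subunit, stood at 53.0 and 41.1 CPM in the controls, 87.7 and 49.8 CPM with LPS, 94.5 and 47.4 CPM with AGE+LPS and 171 and 69.7 CPM with FruArg+LPS. Replicate 1 was the higher in every group, so that LPS overlapped control, and FruArg+LPS replicate 1 was the highest of the 8 libraries. Leaving out LPS replicate 1 or 2 put its log2 fold change with LPS at 0.14 or 0.95. With all 4 libraries it was 0.59 (SE 0.29, adjusted p = 0.157; 0.0108 with the block and 0.000583 without LPS replicate 2, in a range of 0.000583 to 0.679). The other 7, among them the translocon-associated Ssr1, Ssr2, Ssr3 and Ssr4, had log2 fold changes between 0.20 (Sec63, a partner of BiP at the channel) and 0.76 (Ssr3, adjusted p = 0.0554), and none of those 7 passed in the fit without the block.

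Of the degradation branch, Selenos (ENSMUSG00000075701, chr7:66079649-66089405, plus strand), a selenoprotein of the retrotranslocation complex, stood at 104 and 132 CPM in the controls, 260.2 and 299.8 CPM with LPS, 220.2 and 286 CPM with AGE+LPS and 189 and 229 CPM with FruArg+LPS. All LPS-treated libraries exceeded the controls, and FruArg+LPS lay below LPS. It rose 2.42-fold with LPS (log2 fold change 1.28, SE 0.21, edgeR adjusted p = 0.00189) and passed under each alternative (1.4e-08 to 0.0255). Edem2 (ENSMUSG00000038312, chr2:155701677-155729475, minus strand), which helps trim mannose from misfolded glycoproteins, stood at 144 and 157 CPM in the controls, 269 and 250.3 CPM with LPS, 302 and 305 CPM with AGE+LPS and 398 and 407 CPM with FruArg+LPS. Control, LPS, AGE+LPS and FruArg+LPS followed each other upward with no overlap. Os9 (ENSMUSG00000040462, chr10:127095650-127121131, minus strand), a lectin that delivers glycoproteins for degradation, stood at 106 and 109 CPM in the controls, 187 and 167 CPM with LPS, 159 and 146 CPM with AGE+LPS and 147 and 189 CPM with FruArg+LPS. All LPS-treated libraries were above the controls and the FruArg+LPS libraries overlapped both other LPS-treated groups. With LPS, Edem2 rose by 0.82 (SE 0.19, edgeR adjusted p = 0.0113) and Os9 by 0.75 (SE 0.19, edgeR adjusted p = 0.0164). Both calls were lost without control replicate 1 (adjusted p = 0.161 and 0.179) and without control replicate 2 (0.102 and 0.165), in ranges of 3.2e-05 to 0.161 and 0.000143 to 0.206.

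Herpud1 (ENSMUSG00000031770, chr8:94386438-94395377, plus strand), a membrane scaffold of the degradation complex, stood at 81.4 and 75.5 CPM in the controls, 122 and 107 CPM with LPS, 209 and 189 CPM with AGE+LPS and 156 and 122 CPM with FruArg+LPS. AGE+LPS was far above LPS, and all LPS-treated libraries were above the controls. Its log2 fold change with LPS was 0.58 (SE 0.20, adjusted p = 0.0525; 0.00313 with the block and 0.0141 without LPS replicate 2, in a range of 0.00313 to 0.562). Of the other 5, the ubiquitin ligase Syvn1 (HRD1) had a log2 fold change of 0.55, its partner Sel1l one of 0.24, and the retrotranslocation proteins Derl2 and Derl1 had 0.47 and 0.40. Edem1, a mannosidase-like protein, was the one member of this role on the negative side at -0.23, with its LPS libraries (598 and 566 CPM) below the controls (698 and 703 CPM).

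**Figure D2:**
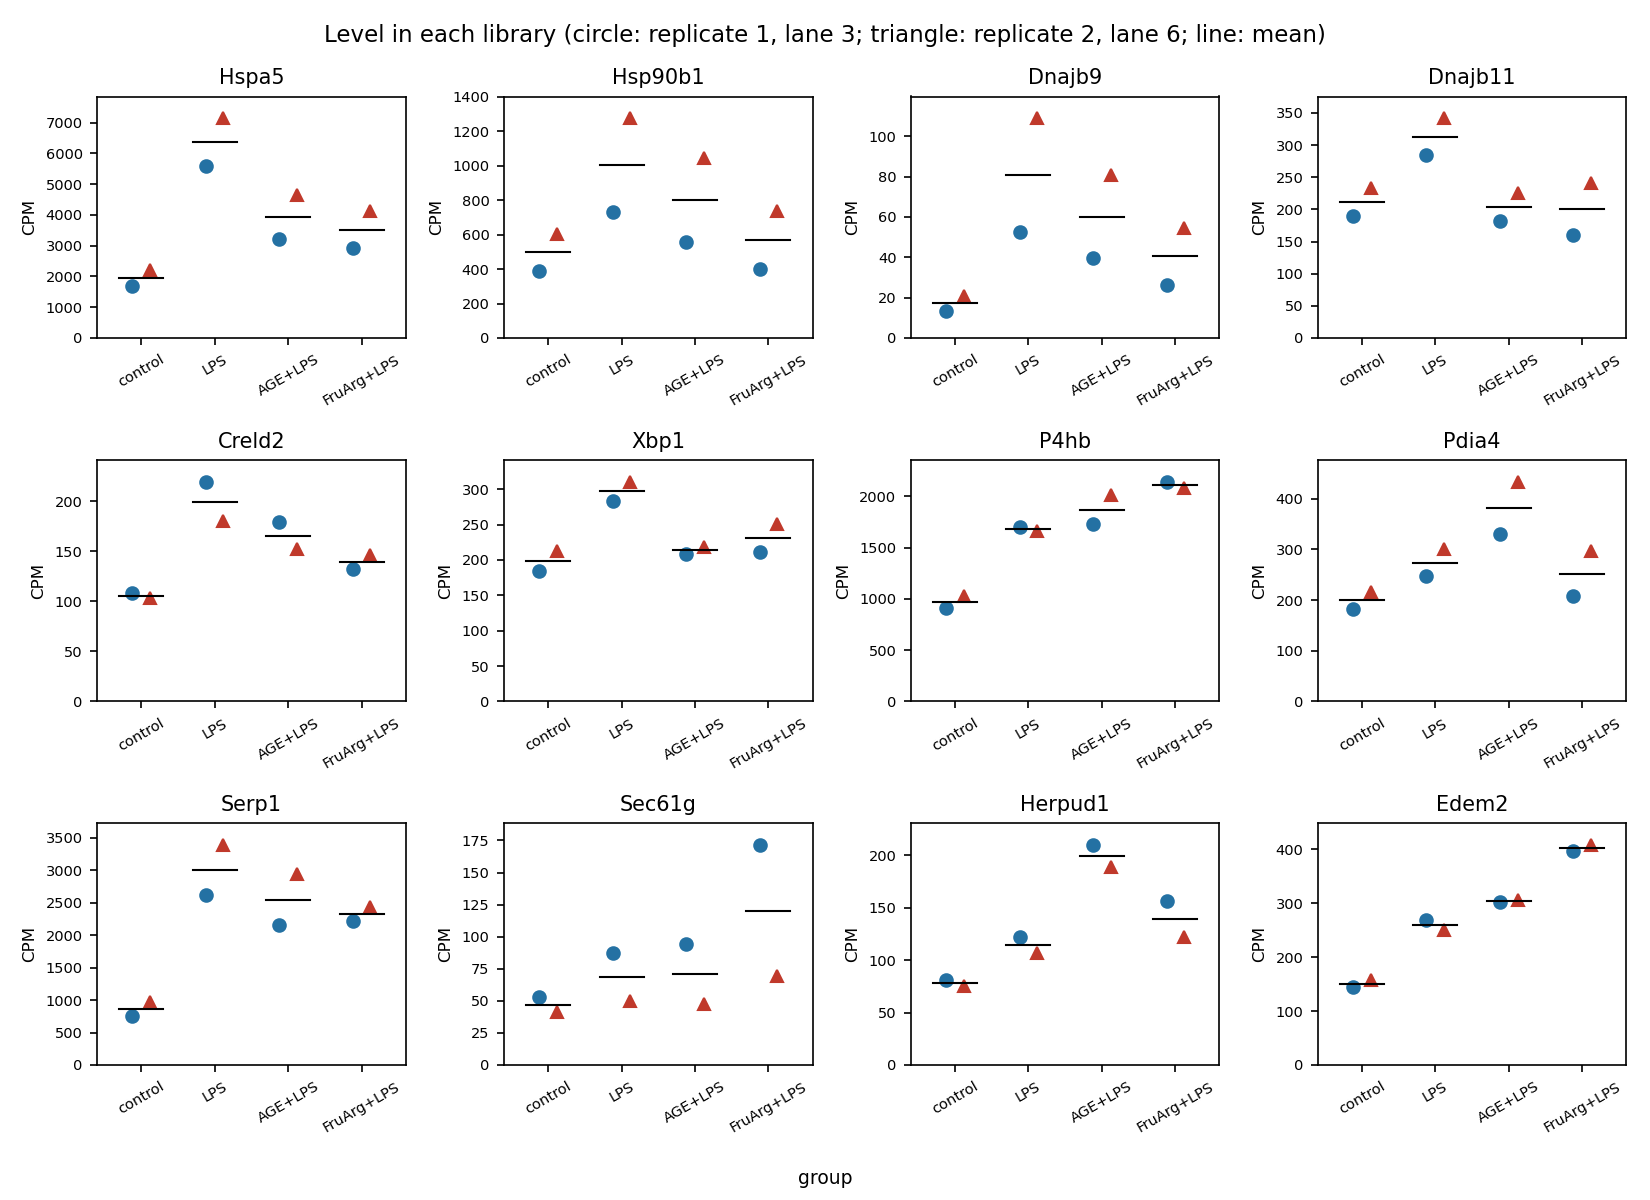
Level of 12 members in each library (vertical axis: CPM from 0; horizontal axis: the 4 groups; circles are replicate 1 in lane 3, triangles replicate 2 in lane 6, lines the mean of both). Hspa5, Xbp1 and Dnajb11 are highest with LPS alone, Herpud1 and Pdia4 with AGE+LPS, and Edem2 and P4hb with FruArg+LPS.

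Per kilobase of exon, which allows levels of different genes to be set side by side, Hspa5 was the most abundant member in all 4 groups, at a mean of 463 CPM per kb in the controls and 1503 with LPS. Serp1 went from 188 CPM per kb in the controls (rank 5 of 38) to 652 with LPS (rank 2). In LPS cells Calr had 589.5 CPM per kb and P4hb 587. Of the sensors, Ern1 at 4.19 CPM per kb and Eif2ak3 at 4.96 CPM per kb in the controls were among the least abundant, next to the ligase gene Syvn1 at 3.72 CPM per kb, while Atf6 had 24.5 CPM per kb (rank 29) and Xbp1 61.2 (rank 18).

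With a single control library fewer members passed, while most fold changes stayed about as large. Without control replicate 1, 4 members rose (10.5%, against 10.6% of all genes), and without control replicate 2, 6 rose (15.8%, against 10.3%), the lone control then being assumed to vary like the LPS group. The members' median log2 fold change was 0.49 and 0.62 in these fits, against 0.55 with both controls. Among the members that lost the call, Creld2 had 0.98 and 0.91 and Edem2 0.76 and 0.88, while Hsp90b1 went from 1.05 to 0.76 without control replicate 1 and to 0.59 without LPS replicate 2. Without LPS replicate 1, 20 rose (52.6%, against 20.7%), and without LPS replicate 2, 14 (36.8%, against 18.8%). The replicates differed by more than counting error, with a chi-square per degree of freedom of 11.9 over the genes of the controls and 41.3 over those of the LPS group.

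Other genes of the pathway are given by list, to be read beside the 16.3% of all genes that rose with LPS and the 14.3% that fell. Of 10 genes of the PERK branch, whose activity was not measured, 6 rose with LPS (Nupr1, Ddit3, Atf3, Ppp1r15a, Trib3 and Atf4), with a median log2 fold change of 0.94. Ddit3, which encodes the transcription factor CHOP, stood at 138 and 101 CPM in the controls, 856 and 639 CPM with LPS, 462 and 279 CPM with AGE+LPS and 343 and 356 CPM with FruArg+LPS. It was far higher in all LPS-treated libraries than in the controls and higher with LPS alone than with either co-treatment. Nupr1, a stress-induced chromatin protein, stood at 34.6 and 38.5 CPM in the controls, 301 and 289.8 CPM with LPS, 97.6 and 87.3 CPM with AGE+LPS and 57.4 and 123 CPM with FruArg+LPS, in the same order. With LPS, Ddit3 rose by 2.68 (SE 0.26, edgeR adjusted p = 0.000111), Nupr1 by 3.04 (SE 0.21, edgeR adjusted p = 2.2e-05) and the transcription factor gene Atf3 by 2.36 (SE 0.23, edgeR adjusted p = 0.000113).

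Among 18 other ER oxidoreductases, isomerases and folding enzymes 4 rose and 1 fell with LPS, with a median of 0.21. Ero1l, the oxidase that recharges disulfide isomerase, rose by 2.56 (edgeR adjusted p = 5.0e-05), the co-chaperone Dnajc1 by 1.94 (edgeR adjusted p = 0.000460), and Erp29, a redox-inactive relative of the isomerases, fell by 1.04 (edgeR adjusted p = 0.00473; 0.0528 without control replicate 2, in a range of 6.3e-07 to 0.0528). Of 7 tested among 8 other transducers and proteases 3 rose and 1 fell, with a median of 0.35. Traf2, an adaptor of IRE1, rose by 1.91 (edgeR adjusted p = 0.00119), Atf6b, the relative of Atf6, by 0.87 (edgeR adjusted p = 0.0223; 0.0774 and 0.187 without control replicate 1 or 2, 0.0976 with all 8 libraries in 1 fit without the block and 0.168 with scaling by library size, in a range of 0.000159 to 0.187), and Mbtps2, the site-2 protease that cleaves ATF6, fell by 1.21 (edgeR adjusted p = 0.0215; 0.165 without control replicate 2 and 0.0543 with all 8 libraries, in a range of 0.000166 to 0.165).

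Of 15 tested among 16 other degradation genes 3 rose (median 0.50), the ubiquitin-conjugating enzymes Ube2j2 (0.91) and Ube2g2 (0.71) and the VCP-binding Ubxn4 (0.74). Of 21 genes of targeting, signal peptidase and oligosaccharyltransferase 2 rose (median 0.13), the signal recognition particle receptor Srpr (0.93) and the signal peptidase subunit Sec11a (0.69). These 5 calls were lost when either control was left out, with adjusted p between 0.0574 (Srpr without control replicate 2) and 0.338 (Ubxn4 without control replicate 1), and those of Ube2j2 and Ube2g2 also without LPS replicate 1 (adjusted p = 0.0824 and 0.123) and with all 8 libraries in 1 fit without the block (0.0616 and 0.103). The call of Ube2g2 was lost with DESeq2 (0.0553), and all 5 were lost with scaling by library size. Over the alternatives the adjusted p ran from 1.5e-05 to 0.184 for Ube2j2, 0.000695 to 0.367 for Ube2g2, 9.5e-05 to 0.338 for Ubxn4, 1.5e-05 to 0.114 for Srpr and 0.000405 to 0.309 for Sec11a. Of 10 tested among 12 heat shock chaperones outside the ER 5 rose (median 0.71). Hsp90aa1, the inducible Hsp90 of the cytosol, stood at 191 and 230.3 CPM in the controls, 1243 and 1248 CPM with LPS, 519 and 704 CPM with AGE+LPS and 623 and 969 CPM with FruArg+LPS, with both LPS libraries above all others and the controls lowest. It rose by 2.60 (SE 0.23, edgeR adjusted p = 6.6e-05), Dnajb1, a co-chaperone of cytosolic Hsp70, by 1.22 (edgeR adjusted p = 0.00260) and Hsph1, an Hsp110, by 1.00 (edgeR adjusted p = 0.00528; 0.0757 without control replicate 1, in a range of 5.4e-06 to 0.0757).

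Promoters were searched for elements known as background to bind the factors of this response. The members were taken by name as genes of the same response, so a higher share among them is no independent support. RefSeq windows of 300 bases on GRCm38.p6, from 250 bases before to 50 after the start of each gene, were at hand for 32 of 38 members (not Atf6, Derl1, Hyou1, Manf, Sec61a1 and Ssr2) and for 27025 genes in all. The ER stress response element, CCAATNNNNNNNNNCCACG on either strand, was in 8 members (25% of the 32; Hspa5, Hsp90b1, Calr, Canx, Dnajc3, Creld2, Pdia6 and Syvn1) and in 37 of all genes (0.137%). On the strand of the window alone it was in 6 members and 21 genes. Its second form, ATTGGNCCACG, was in Herpud1 and Dnajb11 (6.25% of the 32) and in 12 genes (0.0444%), and TGACGTGG was in 0 members and 193 genes (0.714%). The 3 motifs were searched separately and counted wherever they matched, and 10 members (31.2%) and 239 genes (0.884%) held at least 1 of them. With LPS, 4 of the 8 members with the first element rose (median log2 fold change 0.70), as did 7 of the 24 with a window and without it (0.48), Dnajb9 and Serp1 among them, and 3 of the 6 without a window (0.57). Of 29 other genes that hold the element, 7 were tested with LPS and 0 rose by edgeR (median -0.34). Of all genes tested 16.3% rose, and 7 genes are too few to read 0 as a difference from that share. A match describes the letters of the window, and binding was not measured.

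The windows of the 4 members that hold the element and rose with LPS are shown 5′ to 3′ on the strand of the gene, from RefSeq on GRCm38.p6, with CCAAT and CCACG, or their reverse complements ATTGG and CGTGG where the match is on the opposite strand, in capitals. Hspa5 is at chr2:34771840-34772139 (plus strand), its match starting 65 bases before the RefSeq start of the gene, from which these distances are counted. The GENCODE span given above begins upstream of that match, and for Hsp90b1 and Pdia6 the RefSeq start lies inside the span. Hsp90b1 is at chr10:86705395-86705694 (minus strand) and holds a pair of matches, 212 and 107 bases before the start and on opposite strands. Creld2 is at chr15:88819396-88819695 (plus strand), its match 126 bases before the start on the opposite strand, and Pdia6 at chr12:17266339-17266638 (plus strand), its match 98 bases before the start.
Hspa5: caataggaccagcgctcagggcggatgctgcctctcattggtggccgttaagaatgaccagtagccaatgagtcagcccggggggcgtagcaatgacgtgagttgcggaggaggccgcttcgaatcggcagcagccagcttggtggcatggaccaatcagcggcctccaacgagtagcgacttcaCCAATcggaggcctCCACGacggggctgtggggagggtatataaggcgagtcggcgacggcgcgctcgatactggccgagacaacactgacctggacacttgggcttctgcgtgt
Hsp90b1: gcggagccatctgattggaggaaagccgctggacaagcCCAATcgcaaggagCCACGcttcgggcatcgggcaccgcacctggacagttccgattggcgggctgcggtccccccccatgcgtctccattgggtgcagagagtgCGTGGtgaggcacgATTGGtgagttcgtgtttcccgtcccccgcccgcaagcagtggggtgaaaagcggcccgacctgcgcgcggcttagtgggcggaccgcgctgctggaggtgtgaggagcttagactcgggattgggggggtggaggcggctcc
Creld2: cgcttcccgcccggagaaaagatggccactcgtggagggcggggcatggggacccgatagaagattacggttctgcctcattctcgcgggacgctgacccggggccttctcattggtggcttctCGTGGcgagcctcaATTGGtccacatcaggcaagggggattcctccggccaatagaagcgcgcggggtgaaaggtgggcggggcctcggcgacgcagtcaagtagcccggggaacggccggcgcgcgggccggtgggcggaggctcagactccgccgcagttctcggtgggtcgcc
Pdia6: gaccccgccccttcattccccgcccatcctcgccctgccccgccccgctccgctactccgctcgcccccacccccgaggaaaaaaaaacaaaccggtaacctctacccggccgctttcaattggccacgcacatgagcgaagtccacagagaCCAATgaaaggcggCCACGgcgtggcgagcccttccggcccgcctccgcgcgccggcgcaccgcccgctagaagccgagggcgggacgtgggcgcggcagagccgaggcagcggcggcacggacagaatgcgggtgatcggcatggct

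AGE+LPS against LPS asks what the extract changed in cells given LPS. Hspa5, Dnajb11 and Xbp1 were lower with AGE+LPS than with LPS in every library, and Herpud1 and Pdia4 were higher in every library, but these differences passed the test with the lane as a block and not in the fit without it. With genes of at least 1 count kept, Herpud1 and Hspa5 passed without the block too (edgeR adjusted p = 0.0471 and 0.0273). Those calls are 2.63% of members up and 2.63% down, near the 2.37% and 3.05% of all genes. Without the block 0 of 38 members passed by edgeR, against 0.796% of the 12317 genes tested. At an unadjusted p below 0.05 there were 4 of 38 (Hspa5, Dnajb11, Xbp1 and Herpud1), a share below that of all genes (2194 of 12317). DESeq2 also gave 0 members, with 252 genes up and 390 down. With the replicate block, 5 members rose (13.2%, against 19.3% of all genes) and 10 fell (26.3%, against 21.0%). With all 8 libraries in 1 blocked fit 2 rose (5.26%, against 8.44%) and 3 fell (7.89%, against 9.80%), shares below those of all genes.

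Herpud1 changed by 0.80 (SE 0.20, adjusted p = 0.106) without the block and rose with it (edgeR adjusted p = 1.9e-11, and 0.000677 with all 8 libraries; 1.9e-11 to 0.418 over the alternatives). Its log2 differences were 0.77 in lane 3 and 0.82 in lane 6. Hspa5 had -0.69 (SE 0.29, adjusted p = 0.273) and fell with the block (log2 fold change -0.71, edgeR adjusted p = 1.2e-08, and 0.00428 with all 8 libraries; 1.2e-08 to 0.827), with -0.80 in lane 3 and -0.62 in lane 6. Dnajb11 had -0.62 (SE 0.22, adjusted p = 0.212) and fell with the block (edgeR adjusted p = 6.1e-08, and 0.00486 with all 8 libraries; 6.1e-08 to 0.742), back to the level of the controls. Xbp1 likewise had -0.47 (SE 0.19, adjusted p = 0.267) and fell with the block (edgeR adjusted p = 2.5e-05, and 0.0181 with all 8 libraries; 2.5e-05 to 0.778). Pdia4 had 0.48 (SE 0.23, adjusted p = 0.342) and rose with the block (edgeR adjusted p = 2.3e-05, and 0.0221 with all 8 libraries; 2.3e-05 to 0.804). These are the 5 members that passed in both blocked fits. Without the block, leaving out a library put their log2 fold changes between 0.71 and 0.90 for Herpud1, -0.98 and -0.45 for Hspa5, -0.78 and -0.47 for Dnajb11, -0.54 and -0.41 for Xbp1 and 0.27 and 0.66 for Pdia4. Dnajb9 fell with the block on the 4 libraries only, by 0.42 (edgeR adjusted p = 0.00127, and 0.0752 with all 8 libraries; 0.00127 to 0.999), its groups overlap, and its log2 fold change without the block was 0.20 without LPS replicate 2 and 0.0056 without AGE+LPS replicate 1.

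By role with the block on the 4 libraries, 1 chaperone rose (Sdf2l1) and 5 fell (Hspa5, Dnajb11, Dnajb9, Hsp90b1 and Creld2), 1 disulfide isomerase rose (Pdia4) and 2 fell (Pdia6 and Pdia3), 1 translocon member rose (Sec61b) and 1 fell (Serp1), 2 degradation members rose (Herpud1 and Edem2) and 1 fell (Edem1), and of the sensors Xbp1 fell. Apart from the 6 described above, these changes were between -0.34 (Hsp90b1) and 0.29 (Sec61b) on the log2 scale. The median log2 fold change without the block was -0.07 over the members, and -0.18 over the chaperones. Scaling by library size moved the median of all genes from -0.00052 to 0.15 and that of the members to 0.08, and the chaperones' to -0.03.

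FruArg+LPS against LPS asks the same of the single compound. The chaperones Hspa5 and Dnajb11 were again lower in every library than with LPS alone, Edem2 was higher in every library, and Dnajb9 and Hsp90b1 were lower within each lane. Without the block 0 members passed by edgeR, and 0 of the 12071 genes tested (0%) did. At an unadjusted p below 0.05 there were 4 of 38 members (Hspa5, Edem2, Dnajb9 and Dnajb11), a share below that of all genes (1543 of 12071). DESeq2 gave 0 members, with 105 genes up and 107 down. With genes of at least 1 count kept, Dnajb9 passed downward (edgeR adjusted p = 0.0425), which is 2.63% of members, against 1.43% of all genes. Without FruArg+LPS replicate 2 there were 4, Sec61g up (2.63%, against 4.74% of all genes) and Dnajb9, Hsp90b1 and Manf down (7.89%, against 7.26%), and without FruArg+LPS replicate 1 there were 0 by edgeR, also at an unadjusted p below 0.05. With the replicate block 2 rose (5.26%, against 8.23% of all genes) and 8 fell (21.1%, against 9.36%), 7 of these chaperones. With all 8 libraries in 1 blocked fit 2 rose (5.26%, against 9.28%) and 10 fell (26.3%, against 9.97%). In that fit without FruArg+LPS replicate 1, an alternative chosen after seeing the data, 1 rose (2.63%, against 6.42%) and 4 fell (10.5%, against 6.63%): Edem2 up, and Dnajb9, Hspa5, Hsp90b1 and Dnajb11 down.

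Dnajb9 changed by -0.99 (SE 0.43, adjusted p = 0.386) and fell with the block (edgeR adjusted p = 9.3e-05, and 0.000911 with all 8 libraries; 0.00325 in the latter without FruArg+LPS replicate 1), with -0.97 in lane 3 and -0.98 in lane 6. Hsp90b1 had -0.82 (SE 0.37, adjusted p = 0.393) and fell with the block (edgeR adjusted p = 0.00106, 0.00111 and 0.00565 in the same 3 fits). Its level with FruArg+LPS overlapped the controls. Hspa5 had -0.85 (SE 0.30, adjusted p = 0.311) and fell with the block (edgeR adjusted p = 0.00459, 0.00143 and 0.00565). Dnajb11 had -0.63 (SE 0.27, adjusted p = 0.384) and fell with the block (edgeR adjusted p = 0.00524, 0.00435 and 0.0360). Edem2 had 0.64 (SE 0.23, adjusted p = 0.319) and rose with the block (edgeR adjusted p = 0.00709, 0.00441 and 0.0110). Sec61g had 0.82 (SE 0.42, adjusted p = 0.431) and rose with the block (edgeR adjusted p = 0.00247 and 0.0113), but not without FruArg+LPS replicate 1 (log2 fold change 0.45, adjusted p = 0.144). Over the alternatives the adjusted p of these 6 ran from 9.3e-05 to 1.000 for Dnajb9, 0.00106 to 1.000 for Hsp90b1, 0.00143 to 1.000 for Hspa5, 0.00435 to 1.000 for Dnajb11, 0.00441 to 1.000 for Edem2 and 0.00247 to 1.000 for Sec61g. Without the block, leaving out a library put the log2 fold changes between -1.62 and -0.36 for Dnajb9, -1.33 and -0.36 for Hsp90b1, -1.12 and -0.63 for Hspa5, -0.96 and -0.38 for Dnajb11, 0.59 and 0.69 for Edem2 and 0.02 and 1.32 for Sec61g.

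The other members that fell with the block on the 4 libraries were Dnajc3 (-0.52), Manf (-0.51), Creld2 (-0.50) and Pdia3 (-0.49), and all 8 libraries in 1 fit added Canx (-0.46) and Selenos (-0.43); none of these 6 passed without FruArg+LPS replicate 1, where their log2 fold changes were between -0.48 (Pdia3) and -0.34 (Creld2). Xbp1, at -0.36, did not pass in any of these fits, though its FruArg+LPS libraries lay below both LPS libraries. The median log2 fold change without the block was -0.13 over the members, -0.51 over the chaperones, -0.20 over the disulfide isomerases, 0.01 over the translocon members, -0.05 over the degradation members and 0.11 over the sensors. Within lane 3, 1 of 11 chaperones was higher with FruArg+LPS than with LPS (median log2 difference -0.63), and within lane 6 also 1 of 11 (-0.42).

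**Figure D3:**
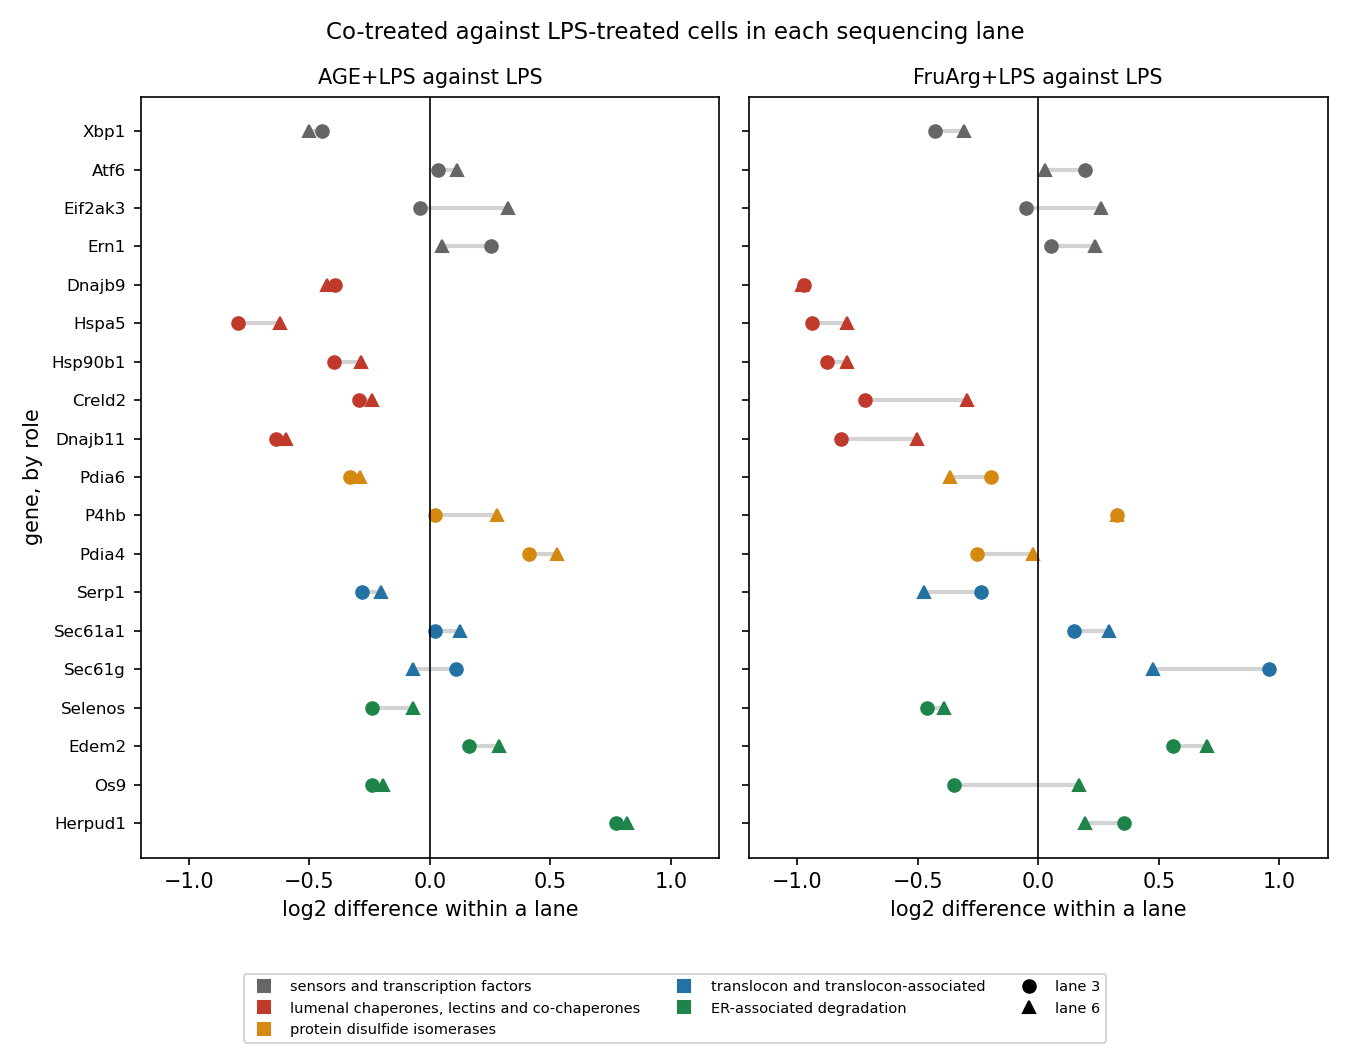
Log2 difference of AGE+LPS (left) and FruArg+LPS (right) from LPS within each sequencing lane (horizontal axis; circles lane 3, triangles lane 6) for the 19 members given with every library (vertical axis, coloured by role). Hspa5, Dnajb11, Dnajb9, Hsp90b1, Creld2, Xbp1, Pdia6, Serp1 and Selenos lie to the left of 0 in both lanes of both panels. Herpud1 lies at 0.77 and 0.82 with AGE+LPS and at 0.35 and 0.19 with FruArg+LPS.

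The difference between the co-treatments was tested directly in FruArg+LPS against AGE+LPS. Members with a call in only one of the comparisons with LPS are not thereby shown to differ, and Hspa5, Dnajb11 and Xbp1 overlapped between the co-treated groups. Without the block 0 members passed by edgeR, and 0 of the 11915 genes tested (0%) did. There 1 of 38 members had an unadjusted p below 0.05, a share below that of all genes (668 of 11915). DESeq2 gave 0 members, with 4 genes up and 1 down. With the replicate block 2 members passed (5.26%, against 3.20% of all genes), Pdia4 lower with FruArg+LPS by -0.61 on the log2 scale (edgeR adjusted p = 0.0435) and Sec61g higher by 0.71 (edgeR adjusted p = 0.0271). With all 8 libraries in 1 blocked fit 4 passed (10.5%, against 4.38%), Pdia4 (-0.60, edgeR adjusted p = 0.0246), Sec61g (0.72, 0.0405), Sec63 (-0.65, 0.0458) and Herpud1 (-0.52, 0.0405). Leaving FruArg+LPS replicate 1 out of that fit put Herpud1 at -0.63, Pdia4 at -0.51, Sec63 at -0.55 and Sec61g at 0.42. FruArg+LPS is then a single library, and the other groups supply the spread. Over the alternatives the highest adjusted p of each was above 0.99, and the lowest were 0.0246 for Pdia4, 0.0271 for Sec61g, 0.0458 for Sec63 and 0.0349 for Herpud1. Without the block and without FruArg+LPS replicate 1 the log2 fold change of Sec61g was -0.02. The log2 fold changes with a library left out were between -0.87 and -0.37 for Pdia4, -1.09 and -0.26 for Sec63 and -0.70 and -0.34 for Herpud1. The pathway genes that passed with the block were Atf6b and Sil1, both higher with FruArg+LPS. These calls are to be read beside the 3.20% and 4.38% of all genes that passed in the blocked fits. With scaling by library size the median of all genes was -0.15 and that of the members -0.26, from -0.02 and -0.12. The members' median was -0.01 without FruArg+LPS replicate 1 and changed sign, to 0.04, without AGE+LPS replicate 2.

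Against the controls, which these comparisons share with LPS against control, members rose in the co-treated cells too, some by less than with LPS alone, as Hspa5, and some by more, as Edem2. With AGE+LPS 12 members rose (31.6%, against 10.5% of the 12449 genes tested), 6 of them at least 2-fold (15.8%, against 7.64%). These 6 were Dnajb9 (1.78, edgeR adjusted p = 0.00816), Serp1 (1.57, 0.00282), Herpud1 (1.36, 0.00144), Selenos (1.11, 0.00738), Edem2 (1.03, 0.00495) and Hspa5 (1.02, 0.0279). The other 6 were Creld2, Hyou1, P4hb, Pdia4, Sec61a1 and Ssr2, and Xbp1 was at 0.12 (adjusted p = 0.718). With the replicate block 25 rose (65.8%, against 20.2% of all genes) and Edem1 fell (by -0.52 on the log2 scale, 2.63% against 18.5%). Leaving out control replicate 1 left 3 members rising (7.89%, against 6.80%), control replicate 2 left 5 (13.2%, against 5.49%), AGE+LPS replicate 1 left 19 (50%, against 13.7%) and AGE+LPS replicate 2 left 14 (36.8%, against 14.2%). The members' median log2 fold change in these 4 fits was 0.43, 0.60, 0.59 and 0.37, against 0.01, 0.02, -0.01 and -0.006 over all genes. The calls of Hspa5 (adjusted p = 0.269 and 0.0772; 0.0501 without AGE+LPS replicate 2 and 0.0674 with scaling by library size), Edem2 (0.0801 and 0.0577) and Selenos (0.0883, control replicate 1 only) were lost without the controls, in ranges of 3.8e-06 to 0.269, 1.3e-07 to 0.0801 and 2.6e-08 to 0.0883. Library size scaling put the median of all genes at -0.24 and that of the members at 0.26, from 0.01 and 0.51, with 7 members rising (18.4%, against 7.41%) and 1 falling (2.63%, against 15.3%).

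With FruArg+LPS 9 members rose against control (23.7%, against 12.8% of the 12038 genes tested), 4 of them at least 2-fold (10.5%, against 9.59%). The 4 were Serp1 (1.46, edgeR adjusted p = 0.00307), Edem2 (1.44, 0.00132), Sec61g (1.39, 0.0371) and P4hb (1.15, 0.00602). Hspa5 (0.87, edgeR adjusted p = 0.0465), Sec61a1, Herpud1, Os9 and Selenos were the other 5, so Hspa5 was the single chaperone of 11 to pass. Dnajb9 was at 1.23 (adjusted p = 0.0531), Xbp1 at 0.24 (0.419) and Hsp90b1 at 0.22 (0.679). With the replicate block 19 rose (50%, against 18.9% of all genes), Dnajb9 among them (edgeR adjusted p = 0.000817), and 18 rose in the blocked fit of all libraries but FruArg+LPS replicate 1 (47.4%, against 20.1%). Without control replicate 1, control replicate 2 or FruArg+LPS replicate 1 there were 4 (10.5%, against 8.10%), 5 (13.2%, against 6.83%) and 16 (42.1%, against 16.8%). Without FruArg+LPS replicate 2, 9 rose (23.7%, against 19.8%) and 2 fell (5.26%, against 19.6%). The rise of Sec61g was less than 2-fold without FruArg+LPS replicate 1, with a log2 fold change of 0.61 without the block and 0.92 in the blocked fit of all other libraries. Sec61g lost its call without control replicate 2 (adjusted p = 0.0511), with all 8 libraries in 1 fit without the block (0.0648) and with scaling by library size (0.0866), in a range of 8.2e-08 to 0.0866 over the alternatives. Hspa5 lost its call without control replicate 1 (0.254), without FruArg+LPS replicate 2 (0.0921), with all 8 libraries in 1 fit without the block (0.0598), with at least 10 counts in each library (0.0565) and with scaling by library size (0.195), in a range of 0.000457 to 0.254, and Dnajb9 gained one with DESeq2 (0.0237), with at least 1 count over the libraries (0.000862), without control replicate 2 (0.0237) and without FruArg+LPS replicate 1 (4.7e-06; 4.7e-06 to 0.175). When scaled by library size, the median of all genes was -0.40 and that of the members 0.03, from 0.002 and 0.43, and the sign of the chaperones' median flipped from 0.29 to -0.11. With that scaling 3 members rose (7.89%, near the 7.61% of all genes) and 2 fell (5.26%, against 22.0%).

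The lists of other pathway genes moved with the co-treatments as follows, each in edgeR against LPS. Without the block Nupr1 alone passed with AGE+LPS (log2 fold change -1.67, SE 0.20, edgeR adjusted p = 0.0389), and no gene of these lists passed with FruArg+LPS. With the block, 19.3% of all genes rose and 21.0% fell with AGE+LPS, and 8.23% rose and 9.36% fell with FruArg+LPS. In those fits 6 of 10 PERK branch genes fell with AGE+LPS (Atf3, Bbc3, Ddit3, Nupr1, Ppp1r15a and Ppp1r15b) and 2 with FruArg+LPS (Ddit3 and Nupr1). Of 10 heat shock chaperones outside the ER that were tested 9 fell with AGE+LPS, with a median of -0.95, and 5 with FruArg+LPS, with a median of -0.72. Hsp90aa1 fell by 1.04 with AGE+LPS (edgeR adjusted p = 4.7e-16) and by 0.67 with FruArg+LPS (edgeR adjusted p = 0.0128). Of 21 genes of targeting, signal peptidase and oligosaccharyltransferase 10 rose with AGE+LPS and 2 with FruArg+LPS, where 1 fell. Of 17 other folding enzymes tested 4 rose and 3 fell with AGE+LPS. Of 15 other degradation genes tested 2 rose and 7 fell with AGE+LPS, and 1 rose and 3 fell with FruArg+LPS. Of 5 other transducers tested with AGE+LPS 1 rose and 3 fell.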

How the data were processed

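RNA-Seq was done on 8 libraries of BV-2 cells in 4 groups of 2 biological replicates. According to the labels, the authors trimmed reads with fastx_toolkit, mapped them with TopHat2 to GRCm38 and counted reads per gene with featureCounts; the deposited values are these raw counts per gene. Tool versions, strandedness and the handling of reads with several mapping positions are not stated, and for the RNA the labels give an RNeasy kit where the paper names TRIzol. All 8 libraries were used. Gene identifiers were matched to GENCODE M21 (45143 of 46078), which gave all 38 members with their coordinates and exon lengths.

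The test was that of edgeR 4.0.16 (R 4.3.3), run for each pair of groups on the 4 libraries of that pair (filterByExpr, TMM, quasi-likelihood F-test, two-sided, Benjamini-Hochberg over all genes tested); the 38 members passed the filter in each comparison. All 6 pairs of the 4 groups were compared. The comparisons share libraries and are not independent of each other. Within-lane differences used a pseudocount of 1 CPM. CPM were scaled over all 8 libraries.

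The replicate number served as a block because the labels put the first replicates in 1 lane and the second replicates in another. The labels of the second replicates also carry a tag that those of the first lack. What the tag stands for is not stated, and the block takes it in. It was checked by correlating the difference between replicates across 12873 genes between groups, where r was lowest at 0.29 for control with FruArg+LPS and highest at 0.68 for AGE+LPS with LPS.

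Alternatives were DESeq2 1.42.0, size factors of the DESeq2 type, scaling by library size, at least 1 count over the libraries or 10 in each, no minimum fold change, all 8 libraries in 1 fit, the replicate block alone and with all 8 libraries, and each library left out in turn. The count of members past the adjusted p without a fold minimum, the median over the members, and the blocked fit without FruArg+LPS replicate 1 were chosen after seeing the data.

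Members given with every library were, in each role, up to 4 with the largest change among those past the adjusted p in LPS against control, and the 6 with the smallest p in each of AGE+LPS and FruArg+LPS against LPS in the blocked fit, with Hspa5, Xbp1, Atf6, Eif2ak3 and Ern1 always included, 19 in all. From each list of other pathway genes, up to 3 of those past the adjusted p with LPS and a mean of at least 5 CPM were named. Sec63, Manf, Hyou1, Ssr3 and the other members named beside them were named after their values were seen. The members and lists were chosen with earlier results of these data known. The sum of another marker list is not reported here. Promoter windows are from RefSeq on GRCm38.p6.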

Additional observations from a re-analysis of the deposited data

Results flagged for a closer look

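The co-treatments differed from each other in the blocked fits of FruArg+LPS against AGE+LPS in 6 values, a test of the difference itself. On the 4 libraries of these groups 2 members passed (5.26%, against 3.20% of all genes). Pdia4 was lower with FruArg+LPS (log2 fold change -0.61) and Sec61g higher (0.71). With all 8 libraries 4 passed (10.5%, against 4.38% of all genes). Pdia4 (-0.60), Sec63 (-0.65) and Herpud1 (-0.52) were lower and Sec61g higher (0.72). None passed without the block. In the blocked fit without FruArg+LPS replicate 1, that group is a single library and the other groups supply the spread. The log2 fold changes were then -0.63 for Herpud1, -0.51 for Pdia4, -0.55 for Sec63 and 0.42 for Sec61g. The part of that library in Sec61g is visible in its level, 171 CPM against 69.7 CPM in FruArg+LPS replicate 2.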

How the results depend on the processing

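Members at least 2-fold changed numbered 5 with LPS, 6 with AGE+LPS and 4 with FruArg+LPS against control, and 0 in the other comparisons. These rose, and in that order are 13.2%, 15.8% and 10.5% of members, against 11.5%, 7.64% and 9.59% of all genes. With scaling by library size the shares were 7.89%, 7.89% and 5.26%, against 7.23%, 5.49% and 5.88% of all genes. With LPS and FruArg+LPS they were then near those of all genes. With a library left out a group is 1 library, so the counts below cannot show an excess over all genes. Scaling by library size gave 3, 3 and 2, no fold minimum 14, 12 and 9, and leaving out a library 4 to 7, 3 to 11 and 4 to 5. FruArg+LPS against LPS gave 1 with at least 1 count over the libraries and 0 to 4 with a library left out.

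Members past the adjusted p with no fold minimum, in the same order, numbered 14, 12 and 9. Scaling by library size gave 5, 8 and 5, the replicate block 27, 26 and 19, the block with all 8 libraries 23, 25 and 20, the latter without FruArg+LPS replicate 1 18 for FruArg+LPS, and leaving out a library 4 to 20, 3 to 19 and 4 to 16. With the block and all 8 libraries, the 25 with AGE+LPS were 63.2% rising and 2.63% falling, against 16.3% and 14.1% of all genes. The 20 with FruArg+LPS were 52.6% rising, against 20.3% of all genes, and 0% falling, against 18.9%. Against LPS, AGE+LPS gave 0, and 2 with at least 1 count over the libraries, 15 with the block and 5 with the block and all 8 libraries. FruArg+LPS against LPS gave 0, and 1, 10 and 12 under the same settings, 5 in the block without FruArg+LPS replicate 1, and 0 to 4 with a library left out. FruArg+LPS against AGE+LPS gave 0, and 2, 4 and 1 in the 3 blocked fits. The cause of these differences was not tested.

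The members' median log2 fold change with LPS against control was 0.55, and 0.13 with scaling by library size, 0.58 with at least 1 count, 0.51 with all 8 libraries in 1 fit and 0.46 to 0.63 with a library left out. For AGE+LPS against LPS it was -0.070, and 0.078 with scaling by library size, -0.080 with size factors of the DESeq2 type, -0.082 with at least 1 count, -0.074 with at least 10 counts in each library, -0.072 with all 8 libraries in 1 fit and -0.16 to 0.12 with a library left out. For FruArg+LPS against LPS it was -0.13, and -0.31 to -0.012 with a library left out. Reversed were Atf6 with LPS against control (0.00044 without LPS replicate 1; -0.13 at the lowest with a library left out), Dnajb9 with AGE+LPS against LPS (0.20 without LPS replicate 2 and 0.0056 without AGE+LPS replicate 1; -1.02 at the lowest) and Sec61g between the co-treatments (-0.025 without FruArg+LPS replicate 1; 1.35 at the highest). Of the single-gene values with LPS against control, 362 kept direction and side of the threshold, 55 lost the call, 14 gained one and 1 reversed.

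With 2 replicates a group and 1 residual degree of freedom in the smaller blocked fits, the blocked calls rest on few libraries. Lane, replicate, whatever the tag in the labels of the second replicates stands for, and any difference in culture between replicates cannot be told apart. Reads from genes that overlap a member, as at Manf and Hsp90b1, cannot be assigned by strand.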
